A study of Mus musculus with 12 samples.

Results

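The 33 genes described here encode the glucose transporters, the enzymes of glycolysis and the enzymes of glycogen storage in the mouse ventricle. They were taken by symbol from a list that names the muscle and non-muscle forms of the same enzyme side by side. The 33 symbols matched 34 of the 21959 gene IDs in the read count table, because 2 IDs carry the name Aldoa. The second Aldoa ID had a mean of 0.229 CPM in WT and failed the filter on low counts, so that 33 IDs, 1 for each gene, were among the 12384 tested. Levels are given in CPM, a gene's count scaled to its library's total after TMM adjustment. RNA came from the heart ventricles of chow-fed male mice, all 7 weeks old, of which 6 were wild type (WT) and 6 lacked Vps13c in the heart (Vps13c-cKO). Each sample is a separate mouse by its label. The labels call the knockout cardiac-specific but name no Cre driver, and the exact control genotype is likewise unstated in the sources available. Vps13c encodes a lipid transfer protein of membrane contact sites. Its level fell from 61.9 ± 4.85 CPM (SD, n = 6) in WT to 18.2 ± 1.58 CPM (SD, n = 6) in Vps13c-cKO, with no overlap between the groups.

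Glucose enters cardiomyocytes mainly through GLUT4, a transporter that insulin and contraction move to the cell surface, and to a lesser extent through GLUT1. Hexokinase traps it as glucose 6-phosphate, which is either split by glycolysis to pyruvate and lactate or stored as glycogen. Many steps have a muscle form and a form found in most other cells. Hk2, Pfkm, Eno3, Pgam2 and Pygm are the forms typical of striated muscle. Hk1, Pfkl, Pfkp, Eno1, Pgam1 and Pygb are more widespread, and Pygb is also a main phosphorylase of the heart. The adult heart burns mostly fatty acids, while the fetal and the stressed heart rely more on glucose.

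Libraries held 12484523 to 15562942 counts. Mitochondrially encoded genes took 29.2% to 31.4% of the counts in WT and 30.6% to 32.2% in Vps13c-cKO. The library of WT mouse 4 stood apart by atrial genes. It held 29.3 CPM of the atrial light chain gene Myl7, 31.3 CPM of Myl4 and 8.24 CPM of Sln, while the WT medians were 0.0365, 1.10 and 0 CPM. Cardiomyocyte markers were present in every library, with a summed level of 69139 to 79413 CPM. Counts of called genes among those described here are therefore given with and without that mouse.

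With a threshold of 0.05 on the adjusted p of edgeR's quasi-likelihood test, 6 of the 33 tested genes rose in the knockout, 9 fell and 18 did not pass. Over all 12384 tested genes, 10.7% passed, with 5.65% of all tested genes higher and 5.1% lower. Without WT mouse 4 the counts among the 33 genes were 9 higher and 8 lower. Leaving out each mouse in turn gave 5 to 9 of the 33 higher and 7 to 9 lower. Over all tested genes, fits that left out each mouse in turn called 561 to 725 genes higher and 504 to 672 lower. The median log2 fold change of the 33 genes was -0.02, beside 2.75e-05 for all tested genes, and the median size of the change among the called genes was 0.20 against 0.28 for all called genes of the table. The groups did not overlap for 3 genes that were higher (Hk1, Pfkp and Eno1) and 6 that were lower (Slc2a4, Hk2, Pfkm, Pfkfb1, Eno3 and Pygb). Over all tested genes, 2.75% were higher without overlap and 2.18% lower without overlap. The summed level of all 34 IDs was 11211 to 11959 CPM in WT and 10969 to 11354 CPM in Vps13c-cKO.

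**Figure D1:**
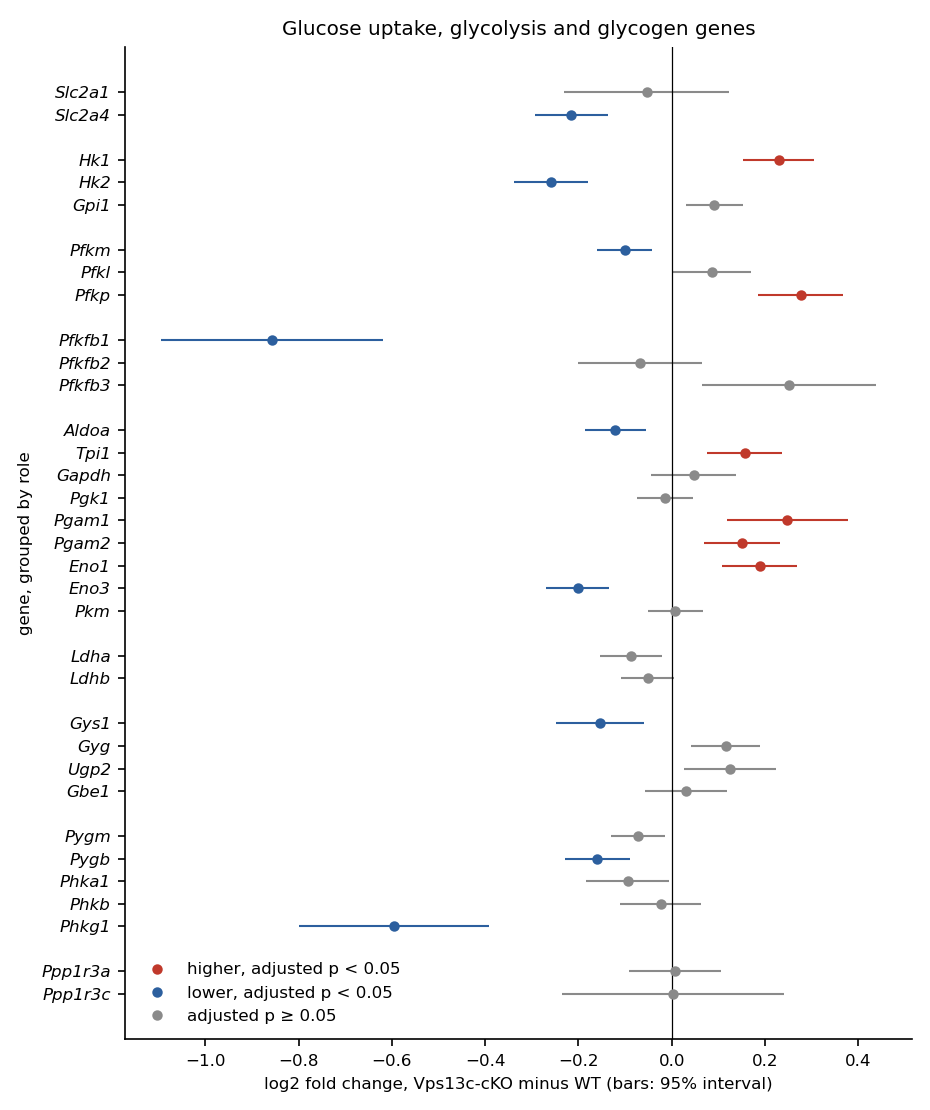
Log2 fold change of each tested gene (x axis, Vps13c-cKO minus WT) by role (y axis), with points for the estimate and bars for the 95% interval. Red marks the 6 genes called higher, blue the 9 called lower and grey the 18 that did not pass. Pfkfb1 and Phkg1 lie farthest to the left, and the muscle and non-muscle forms Hk2 and Hk1, Pfkm and Pfkp, and Eno3 and Eno1 lie on opposite sides of 0.

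Levels between genes were compared per kilobase of the principal transcript in GENCODE M21. On that scale Ldhb (799 ± 23.5 CPM per kb, SD, n = 6), Aldoa (782 ± 24.8) and Eno3 (623 ± 30.8) were the most abundant in WT. Ldhb and Aldoa did not differ beyond their spread. Ldhb makes the lactate dehydrogenase subunit of oxidative muscle. Slc2a1 (2.85 ± 0.311 CPM per kb) and Pfkfb3 (3.18 ± 0.325) were the lowest and also did not differ beyond their spread. Named pseudogenes exist for Aldoa, Gapdh, Pgk1, Pgam1 and Ldha, and the order may depend on how reads shared with such copies were counted. It also depends on the length used. Over all annotated exons, for example, the WT level of Hk1 was 20.7 in place of 45.8 CPM per kb and that of Hk2 63.5 in place of 68.7.

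**Figure D2:**
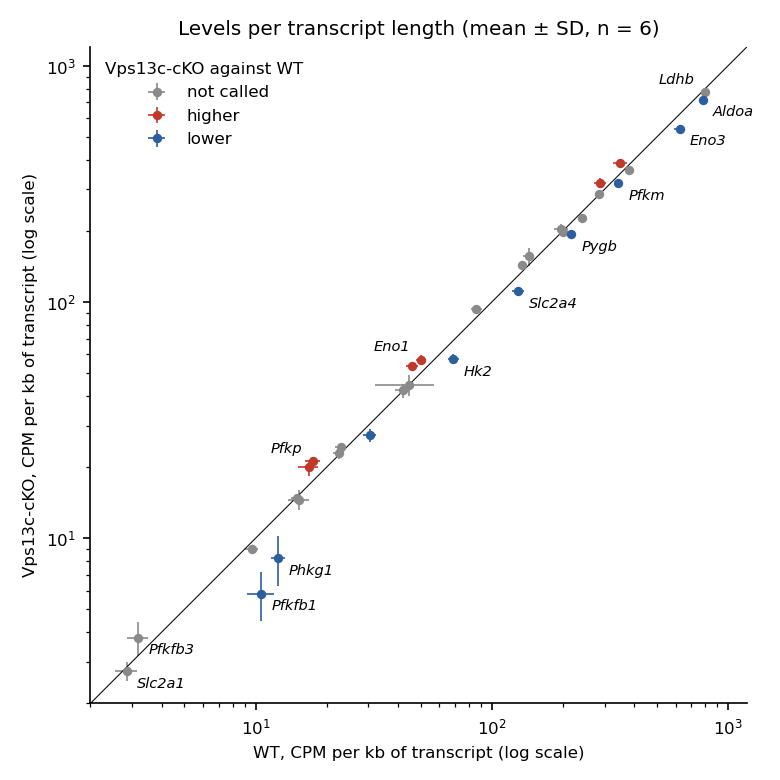
Mean level per kilobase of transcript in WT (x axis, log scale) and Vps13c-cKO (y axis, log scale), with SD bars over 6 mice per group. The thin line marks equal levels. The genes span from 2.85 CPM per kb for Slc2a1 to 799 for Ldhb in WT, and most lie close to the line.

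The upstream sequences of 3 isozyme genes on which the results turn, each with a single start in the RefSeq promoter table of GRCm38.p6, are shown to set the changes beside their regulatory sequence. Hk2 and Eno3 are muscle forms that fell and Pfkp is a non-muscle form that rose. The 250 bases before the start are given 5′ to 3′ on the gene's strand, at chr6:82774455-82774704 (minus strand) for Hk2, chr11:70656926-70657175 (plus strand) for Eno3 and chr13:6648772-6649021 (minus strand) for Pfkp. Capitals mark matches on either strand. GGGCGG is the GC box. ACGTG is the core bound by hypoxia-inducible factors. It also lies within the E-box, spelled CACGTG. The element of estrogen-related receptors is AAGGTCA. The site of TEAD factors is GGAATG.
Hk2: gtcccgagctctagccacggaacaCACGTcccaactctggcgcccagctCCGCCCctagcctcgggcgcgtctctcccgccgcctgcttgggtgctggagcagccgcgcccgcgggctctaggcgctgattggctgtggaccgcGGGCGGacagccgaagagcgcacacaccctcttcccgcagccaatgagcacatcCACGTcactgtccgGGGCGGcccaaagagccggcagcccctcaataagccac
Eno3: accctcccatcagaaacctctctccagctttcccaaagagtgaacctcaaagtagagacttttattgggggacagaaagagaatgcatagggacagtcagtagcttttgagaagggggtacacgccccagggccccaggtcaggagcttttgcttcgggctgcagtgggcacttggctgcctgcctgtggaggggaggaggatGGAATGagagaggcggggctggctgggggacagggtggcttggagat
Pfkp: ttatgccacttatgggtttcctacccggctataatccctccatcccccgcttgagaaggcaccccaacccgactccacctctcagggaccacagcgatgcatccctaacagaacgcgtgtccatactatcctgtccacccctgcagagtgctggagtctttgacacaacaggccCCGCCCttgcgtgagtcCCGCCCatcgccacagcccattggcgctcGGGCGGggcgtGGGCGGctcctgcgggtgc
Hk2 held 3 GC boxes and 2 ACGTG cores, Pfkp held 4 GC boxes, and Eno3 held 1 GGAATG. The GC content of these windows was 69.6%, 62.8% and 57.2%, beside a median of 52.4% over all windows. The table held 49 starts of 32 of the genes. Slc2a4 is named only. A GC box was found at 22 of the 49 starts (44.9%) and at 32.7% of all 32851 windows of that length. An ACGTG core was found at 18 of 49 starts (36.7%) and at 16.6% of all windows. The E-box CACGTG was found at 5 of 49 starts (10.2%) against 6.02%, AAGGTCA at 2 (4.08%) against 4.08%, and GGAATG at 4 (8.16%) against 12.6%. Starts of 1 gene can overlap, the windows compared were not matched for GC content, and matches are descriptions of the letters.

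Of the transporters, only Slc2a4 passed the threshold. Slc2a4, which encodes GLUT4, ranged from 306 to 349 CPM in WT with a median of 325, and from 259 to 295 CPM in Vps13c-cKO with a median of 283. Every knockout ventricle lay below every WT ventricle, and the gene fell by 0.22 ± 0.04 on the log2 scale (SE; edgeR adjusted p = 0.00103), a change of -13.9%. Slc2a1, which encodes GLUT1, was at 9.28 ± 1.01 CPM (SD, n = 6) in WT and 8.94 ± 0.796 CPM in Vps13c-cKO, with a log2 fold change of -0.05 and a 95% interval of -0.23 to 0.12. A fall of the size seen for Slc2a4 lies within that interval. On the list of 7 other glucose transporters, 6 were tested, 1 was lower and 0 were higher. That gene was Slc2a12, a further transporter of insulin-sensitive tissue, at 9.95 ± 1.16 CPM in WT and 7.23 ± 0.886 CPM in Vps13c-cKO (edgeR adjusted p = 0.00361). Exons of Slc2a12 and Tbpl1 overlap on opposite strands, and the log2 fold change of Tbpl1 was 0.08 ± 0.08 (SE).

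The hexokinases moved in opposite directions. Hk2, the insulin-responsive hexokinase of muscle, ranged from 345 to 399.8 CPM in WT (median 383) and from 299 to 335 CPM in Vps13c-cKO (median 314). It fell by 0.26 ± 0.04 on the log2 scale (SE; edgeR adjusted p = 0.000176), without overlap between the groups. Hk1, the hexokinase of most tissues, ranged from 161 to 189.6 CPM in WT (median 177) and from 198 to 214 CPM in Vps13c-cKO (median 208). All 6 knockout ventricles lay above all WT ventricles, and the log2 fold change of Hk1 was 0.23 ± 0.04 (SE, adjusted p = 0.000433). Per length, Hk1 made up 40.02% ± 0.782 (SD, n = 6) of the sum of Hk1 and Hk2 in WT and 48.4% ± 0.812 in Vps13c-cKO. These shares depend on the length used and were 24.6% and 31.4% over all annotated exons. Gpi1, which isomerises the product of hexokinase, was at 388 ± 10.7 CPM in WT and 413 ± 9.07 CPM in Vps13c-cKO (edgeR adjusted p = 0.0611). It passed without WT mouse 4 (adjusted p = 0.0483).

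On the list of 18 other glycolytic isozymes, 10 were tested, of which 0 were higher and 1 lower. This was Fbp2, the muscle form of fructose bisphosphatase, which works against phosphofructokinase. It ranged from 20.1 to 28.6 CPM in WT (median 25.1) and from 7.76 to 16.8 CPM in Vps13c-cKO (median 15.6). It fell by 0.78 ± 0.13 on the log2 scale (SE; edgeR adjusted p = 0.000260), without overlap.

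**Figure D3:**
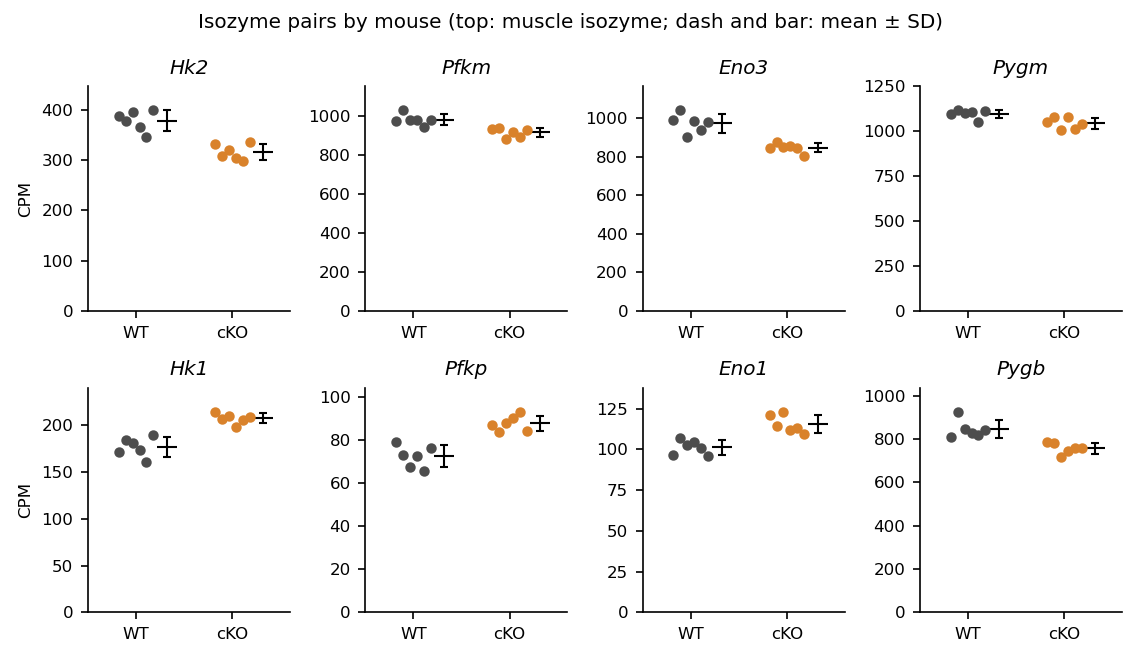
CPM (y axis, from 0) of 4 isozyme pairs in each of the 6 WT and 6 Vps13c-cKO mice, with the muscle form above and the other form below; dashes and bars are the mean and SD. Hk2, Pfkm and Eno3 lie lower and Hk1, Pfkp and Eno1 higher in Vps13c-cKO without overlap, while Pygm and Pygb both have lower means.

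The phosphofructokinases, which catalyse the committed step of glycolysis, followed the same order of muscle and non-muscle forms. Pfkm, the muscle subunit, ranged from 947 to 1031 CPM in WT (median 979) and from 881 to 940.0 CPM in Vps13c-cKO (median 925). The groups did not overlap and Pfkm fell by 0.10 ± 0.03 on the log2 scale (SE; edgeR adjusted p = 0.0331). This call was lost on leaving out WT mouse 2 or 3 or Vps13c-cKO mouse 3, 4 or 5, each in turn, with adjusted p from 0.0508 to 0.0851. Pfkp, the platelet form, ranged from 65.5 to 79.2 CPM in WT (median 72.7) and from 83.7 to 93.1 CPM in Vps13c-cKO (median 87.3), again without overlap. Its log2 fold change was 0.28 ± 0.05 (SE, adjusted p = 0.000391). Exons of Pfkp and Pitrm1 overlap on opposite strands over 748 bases. Pitrm1 was at 55.0 ± 4.24 CPM (SD, n = 6) in WT and 51.4 ± 3.54 CPM in Vps13c-cKO. Pfkl, the liver form, was at 85.6 ± 4.68 CPM (SD, n = 6) in WT and 90.9 ± 3.86 CPM in Vps13c-cKO. It did not pass (edgeR adjusted p = 0.221), and the 95% interval of its log2 fold change was 0.003 to 0.17. Pfkm made up most of the phosphofructokinase level in both groups, as Pfkp was 4.86% of the sum of Pfkp and Pfkm per length in WT and 6.23% in Vps13c-cKO. Over all annotated exons, a length chosen after seeing the data, these shares were 1.80% and 2.33%.

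Pfkfb1 had the largest estimated change of the 33 genes, though its 95% interval (-1.09 to -0.62 on the log2 scale) overlapped that of Phkg1 (-0.80 to -0.39). The Pfkfb genes encode the enzymes that make and remove fructose 2,6-bisphosphate, the strongest activator of phosphofructokinase. Pfkfb1 is the form known from liver and skeletal muscle and Pfkfb2 that of the heart. Pfkfb1 ranged from 14.0 to 20.4 CPM in WT (median 19.5) and from 7.41 to 13.4 CPM in Vps13c-cKO (median 9.69), with the groups close but not overlapping. It fell by 0.86 ± 0.12 on the log2 scale (SE; edgeR adjusted p = 5.89e-05). Exons of Pfkfb1 and Apex2 overlap on opposite strands, and Apex2 was at 5.62 ± 0.515 CPM (SD, n = 6) in WT and 4.98 ± 1.43 CPM in Vps13c-cKO. Pfkfb2, at 67.6 ± 6.85 CPM in WT and 64.4 ± 6.39 CPM in Vps13c-cKO, did not pass (adjusted p = 0.603; 95% interval -0.20 to 0.07). Pfkfb3, the inducible form, was at 14.7 ± 1.504 and 17.6 ± 2.85 CPM and did not pass either (adjusted p = 0.0979), but passed without Vps13c-cKO mouse 3 (adjusted p = 0.0425).

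Lower glycolysis went both ways, with 4 of 9 genes higher and 2 lower. Eno3, the enolase of muscle, ranged from 902 to 1043 CPM in WT (median 985) and from 807 to 876 CPM in Vps13c-cKO (median 849). It fell by 0.20 ± 0.03 on the log2 scale (SE; edgeR adjusted p = 0.000470), without overlap. Eno1, the enolase of most tissues, ranged from 95.7 to 107 CPM in WT (median 102) and from 109 to 123 CPM in Vps13c-cKO (median 114). It rose by 0.19 ± 0.04 on the log2 scale (SE, adjusted p = 0.00378). Knockout and WT ventricles did not overlap for Eno1 either, but in the other direction than for Eno3. Aldoa, the muscle aldolase, was lower, at 1181 ± 37.4 CPM (SD, n = 6) in WT and 1086 ± 44.6 CPM in Vps13c-cKO (adjusted p = 0.0205).

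Triose phosphate isomerase and the mutases rose. Tpi1 was at 460.5 ± 26.2 CPM (SD, n = 6) in WT and 513 ± 24.4 CPM in Vps13c-cKO (log2 0.16 ± 0.04 SE; edgeR adjusted p = 0.0152). Of the phosphoglycerate mutases, the muscle form Pgam2 went from 294 ± 19.7 to 326 ± 11.1 CPM (adjusted p = 0.0207) and the widespread form Pgam1 from 29.7 ± 3.03 to 35.4 ± 2.70 CPM (adjusted p = 0.0171). For this pair the muscle form rose, unlike Hk2, Pfkm and Eno3. The call of Pgam2 was lost without WT mouse 3 (adjusted p = 0.0511) and without Vps13c-cKO mouse 5 (adjusted p = 0.0535). Gapdh, often used as a reference gene, was at 279.5 ± 20.03 and 289 ± 15.6 CPM, Pgk1 at 365 ± 9.48 and 361 ± 7.11 CPM, and the pyruvate kinase gene Pkm at 692 ± 16.1 and 696 ± 18.8 CPM. None of these 3 passed, and their 95% intervals were -0.04 to 0.14, -0.08 to 0.04 and -0.05 to 0.07 on the log2 scale. Several of these genes have processed copies in the genome, so reads may be shared among them. The lactate dehydrogenase genes did not pass, with log2 fold changes of -0.09 ± 0.03 (SE) for Ldha (adjusted p = 0.115) and -0.05 ± 0.03 for Ldhb (adjusted p = 0.298).

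The change in balance between forms was compared directly as the log2 ratio of the counts in each mouse, which does not depend on scaling between libraries. The 8 ratios were chosen with the genes' own results known. The ratio of Hk1 to Hk2 was -1.10 ± 0.05 (log2, SD, n = 6) in WT and -0.61 ± 0.05 in Vps13c-cKO, 1.40 times as high. The ratio of Eno1 to Eno3 was 1.31 times as high (log2 difference 0.39) and that of Pfkp to Pfkm 1.30 times as high (log2 difference 0.38). In each of these 3 pairs all 6 knockout mice lay above all 6 WT mice. This separation follows from the genes' own ranges, since neither gene of these pairs overlapped between the groups and the changes were opposite, so no p-value is given for them. For the other 5 ratios a two-sided exact permutation test over the 12 mice was used, adjusted over all 8. The 3 separated pairs take the smallest p-values in that adjustment. The adjusted p of the ratios that passed is therefore lower than over these 5 alone. The ratio of Pfkl to Pfkm was 1.14 times as high, with 5 of 6 knockout mice above all WT mice (exact p = 0.00433, adjusted p = 0.00866). The phosphorylases moved the other way, as the ratio of Pygb to Pygm was 0.942 times that of WT, with 4 of 6 knockout mice below all WT mice (exact p = 0.00866, adjusted p = 0.0139). Pfkm and Pygb were each lower without overlap, so the p-values of Pfkl to Pfkm and Pygb to Pygm partly restate those falls. They are not separate support for a shift between forms.

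The other 3 pairs did not pass. The log2 difference was 0.16 for Slc2a1 to Slc2a4 (exact permutation p = 0.0844, adjusted p = 0.113), 0.10 for Pgam1 to Pgam2 (exact permutation p = 0.249) and -0.04 for Ldha to Ldhb (exact permutation p = 0.225, both adjusted p = 0.249). For Pgam1 and Pgam2 only 1 of 6 knockout mice lay above all WT mice.

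**Figure D4:**
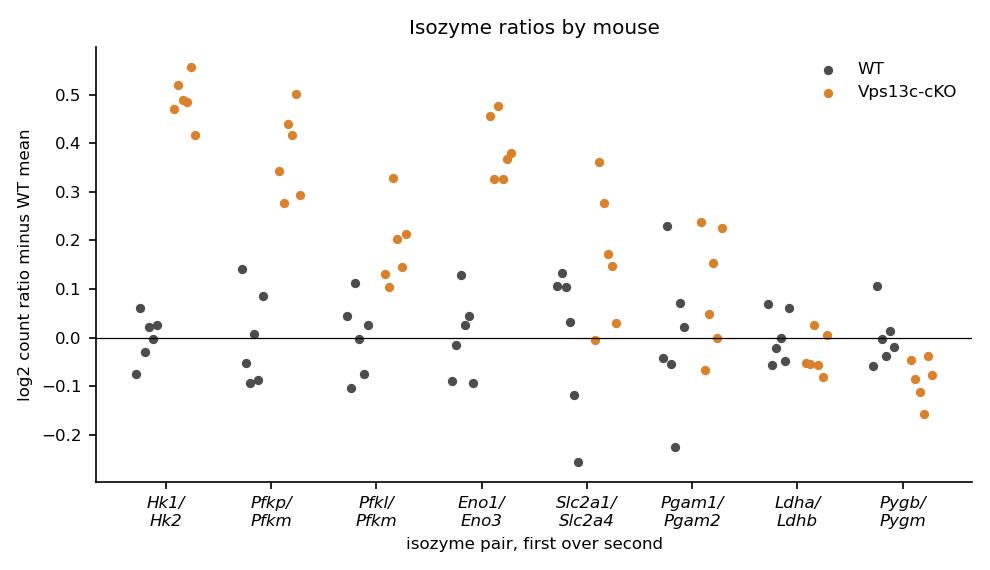
Log2 ratio of the counts of each isozyme pair (x axis) in each mouse, minus the WT mean of that pair (y axis). The knockout mice lie above all WT mice for Hk1 to Hk2, Pfkp to Pfkm and Eno1 to Eno3, and the groups overlap for the other 5 pairs.

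Of the 4 genes of glycogen synthesis, 1 was lower and 0 were higher. Gys1, the muscle glycogen synthase, was at 112 ± 7.20 CPM (SD, n = 6) in WT and 101 ± 6.40 CPM in Vps13c-cKO, with overlapping groups (log2 -0.15 ± 0.05 SE; edgeR adjusted p = 0.0434). This call was lost in 9 of the 12 fits that left out a mouse, with adjusted p from 0.0536 to 0.110, and with the replicate number as a block (adjusted p = 0.0529). Leaving out WT mouse 1, 2, 4 or 6 or Vps13c-cKO mouse 1, 2, 3, 4 or 5 had this effect. Exons of Gys1 and Ruvbl2 overlap on opposite strands over 310 bases. Ruvbl2 was at 15.4 ± 0.519 CPM in WT and 14.4 ± 1.13 CPM in Vps13c-cKO. Gyg, which primes glycogen as glycogenin, was at 146 ± 7.58 and 158 ± 4.38 CPM and just missed the threshold (adjusted p = 0.0556; adjusted p = 0.0110 without WT mouse 4). Ugp2, which makes UDP-glucose, was at 384 ± 20.2 and 419 ± 36.6 CPM (adjusted p = 0.121). It passed without WT mouse 4 (adjusted p = 0.0460) and without Vps13c-cKO mouse 6 (adjusted p = 0.00825). The branching enzyme gene Gbe1, at 63.9 ± 3.21 and 65.2 ± 3.59 CPM, did not pass (95% interval -0.06 to 0.12).

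Genes of glycogen breakdown were lower where they passed. Phkg1 encodes the catalytic subunit of muscle phosphorylase kinase, which switches on phosphorylase in response to calcium and adrenaline. It ranged from 27.4 to 32.5 CPM in WT (median 29.6) and from 15.0 to 28.1 CPM in Vps13c-cKO (median 18.01). Vps13c-cKO mouse 6, at 28.1 CPM, lay within the WT range, while the other 5 knockout mice lay at 15.0 to 21.4 CPM, below all WT mice. Phkg1 fell by 0.60 ± 0.10 on the log2 scale (SE; edgeR adjusted p = 0.000527) and by 0.73 without that mouse. The same mouse was the highest knockout for Pfkfb1 (13.4 CPM) and the skeletal muscle marker Atp2a1 (46.5 CPM). It was the lowest knockout for Ugp2 (351 CPM) and Gapdh (259 CPM), and a link among these values was not tested. Exons of Phkg1 overlap Sumf2 on the opposite strand, and Sumf2 was at 5.17 ± 0.417 CPM (SD, n = 6) in WT and 5.23 ± 1.10 CPM in Vps13c-cKO.

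The other subunits of phosphorylase kinase did not pass, with log2 fold changes of -0.09 ± 0.05 (SE) for the muscle alpha subunit gene Phka1 (edgeR adjusted p = 0.210) and -0.02 ± 0.04 for the beta subunit gene Phkb (adjusted p = 0.810). Pygb, the phosphorylase known from brain and heart, ranged from 809 to 927 CPM in WT (median 836) and from 716 to 786 CPM in Vps13c-cKO (median 758). It fell by 0.16 ± 0.04 on the log2 scale (SE, adjusted p = 0.00495), with no overlap between the groups. Pygm, the muscle phosphorylase, was at 1096 ± 22.6 CPM (SD, n = 6) and 1043 ± 31.7 CPM and did not pass (adjusted p = 0.137; 95% interval -0.13 to -0.01 before adjustment). Ppp1r3a and Ppp1r3c, which tether protein phosphatase 1 to glycogen, had log2 fold changes of 0.01 ± 0.05 (SE) and 0.00 ± 0.12. Ppp1r3c varied more among WT mice, from 87.7 to 179 CPM, than among knockout mice, from 103 to 137 CPM. On the list of 18 other glycogen genes, 15 were tested, of which 1 was higher and 1 lower. Ppp1r3d, another targeting subunit, went from 20.3 ± 1.24 to 16.2 ± 1.38 CPM (adjusted p = 0.00279). Stbd1, which binds glycogen to membranes, went from 6.65 ± 1.30 to 8.63 ± 0.684 CPM (adjusted p = 0.0353).

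**Figure D5:**
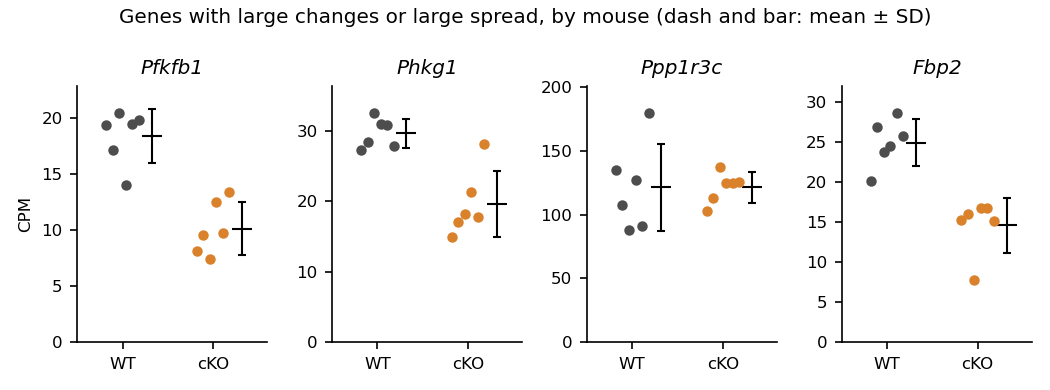
CPM (y axis, from 0) of Pfkfb1, Phkg1, Ppp1r3c and Fbp2 in each of the 6 WT and 6 Vps13c-cKO mice; dashes and bars are the mean and SD. For Phkg1, 1 knockout mouse at 28.1 CPM lies among the WT mice. For Pfkfb1 and Fbp2 all knockout mice lie below all WT mice, and for Ppp1r3c the WT mice spread more widely than the knockout mice.

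Most of the 33 genes varied little among mice of a group. Their median coefficient of variation was 5.51% in WT and 4.36% in Vps13c-cKO, and it was 6.93% and 6.48% over all tested genes at or above the mean level of the lowest of them. The sets were not matched for level, so the values do not show the 33 genes to vary less than others of like level. Phkg1 and Pfkfb1 had coefficients of variation of 23.8% and 23.3% in Vps13c-cKO, the largest of the 33 in that group.

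The share of called genes differed among lists of glucose use and its control outside glycolysis, beside 10.7% over all tested genes. On the pentose phosphate list 1 of 8 tested genes was lower (H6pd, edgeR adjusted p = 0.0421) and 0 higher. On the list of hexosamine synthesis and O-GlcNAc, 0 of 6 passed. Of 4 polyol and fructose genes 3 were called. Akr1b3 (adjusted p = 0.0283) and Sord (adjusted p = 0.0102), the enzymes of the polyol pathway, were lower and Akr1b8 was higher (adjusted p = 0.0263). Of 18 genes of insulin signalling and GLUT4 trafficking, 1 was lower and 0 higher. This was Irs1, an adaptor of the insulin receptor, which went from 23.0 ± 2.39 CPM to 18.8 ± 1.88 CPM (edgeR adjusted p = 0.0155). Of 14 regulators of glucose genes, only Myc was higher, from 3.36 ± 0.412 to 4.86 ± 0.688 CPM (adjusted p = 0.00910), and 0 were lower. Of 15 clock genes 5 were called, with Per2 and Ciart higher and Clock, Arntl and Nr1d1 lower. No label states the hour of collection, and the part of clock phase was not tested.

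Some markers of other cell types also differed between the groups. Fewer cells of a type and less RNA per cell cannot be told apart in these bulk samples. Of 10 fibroblast markers, 7 were higher and 0 lower, and their summed level was 1935 to 2190.1 CPM in WT and 2219 to 2474 CPM in Vps13c-cKO. Of 10 macrophage markers, 4 were higher and 0 lower (256 to 345 against 322 to 379 CPM). Of 10 cardiomyocyte markers, 1 was higher and 4 lower, and their sum was 73104 to 79413 CPM in WT and 69139 to 75371 CPM in Vps13c-cKO. Medians of that sum were 76006 and 71694 CPM. Endothelial markers had 0 of 10 higher and 1 lower (1042 to 1198 against 1046 to 1091 CPM), and smooth muscle and pericyte markers 1 of 9 tested higher and 2 lower (1631 to 1946 against 1569 to 1638 CPM). The part of these cell types in the shift between forms was not tested.

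Of 12 markers of skeletal muscle fibres, which share several of these enzymes with the heart, 6 were tested and all 6 were higher (10.3 to 13.5 against 66.2 to 111 CPM summed over the list). Of these 6, Atp2a1, Mylpf, Ryr1, Tnni2 and Tnnt3 lie on chromosome 7 and Casq1 on chromosome 1. The 6 untested markers, which are the myosin genes Myh1, Myh2 and Myh4 and Actn3, Pvalb and Tnnc2, had at most 13 counts over the 6 libraries of a group, and Tnnc2 had 0 in all. Erythroid markers had 0 of 5 tested genes called (282 to 452 against 237 to 736 CPM). Of 7 atrial markers 3 were tested, and only Nppa was called, at 3.14 to 7.95 CPM in WT and 12.5 to 27.3 CPM in Vps13c-cKO. The sum of the 7 was 31.0 to 104 CPM in WT, with the highest value in WT mouse 4, and 39.5 to 53.2 CPM in Vps13c-cKO. Lymphocyte (9.43 to 14.9 against 11.1 to 15.9 CPM), Schwann cell and neuron (8.72 to 13.6 against 8.49 to 13.8 CPM) and adipocyte markers (0.0723 to 1.21 against 0.149 to 1.19 CPM) were near the floor, with 0 called.

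Gpi1, Aldoa, Ldha and Gys1 lie on chromosome 7, where 177 of 955 tested genes were called, beside 1331 of 12384 over the whole table. Of these 4 genes, Aldoa and Gys1 were called, both lower. No gene of the 5 isozyme ratios that differed between the groups lies on that chromosome. Any part of that chromosome in the ratios was not tested.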

How the data were processed

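Messenger RNA was purified with poly-T beads and read from 12 ventricles, 1 per mouse. The table holds raw deposited counts, 1 whole number per gene and library, per the file headers. The submitters' processing notes list fastp (0.22.0), HISAT2 (2.1.0), HTSeq (0.9.1) and GRCm39. Neither the annotation release nor the strand setting is stated, so reads of genes overlapping on opposite strands cannot be told apart. Reads were counted after PCR, and no molecular identifiers are named.

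Names and transcript lengths came from GENCODE M21 (GRCm38), which named 21902 of 21959 IDs, and promoters from RefSeq. Samples were grouped by title, and the number of unused sample columns was 0. Between replicates of a group, chi-square per gene was 3.11 to 5.62, so each was kept as its own sample. filterByExpr left 12384 genes for the two-sided quasi-likelihood F test in edgeR 4.0.16 (R 4.3.3). TMM scaled the libraries and p-values were adjusted by Benjamini-Hochberg over every tested gene. Adjusted p-values of single genes are from this fit unless a permutation test is named. The 95% intervals use the normal quantile and are somewhat narrower than the F test implies. For Pfkl the interval excludes 0, while the unadjusted p of the F test was 0.0546. Ratios had 0.5 added to each count. Checked on simulated counts (12314 genes, Vps13c-cKO against WT), the fit called 26% of 1.15-fold changes, 64% of 1.25-fold, 88% of 1.5-fold and 98% of 2-fold ones. Of its 150 calls 12 were false.

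The genes, lists and ratios were chosen with earlier results of these data known. All 33 genes are described. Some genes of the other lists are not reported here and are left out of the lists' counts. By rule, up to 4 called genes of each other list and 2 of each marker list could be named, by smallest p. The remaining atrial genes, Tnnc2, the fifth clock gene and overlapping partners were named after their values were seen. Alternatives were DESeq2 1.42.0 and its size factors, upper-quartile factors, nuclear genes only, other filters, limma-voom (limma 3.58.1), a replicate block, no chromosome 7 genes and leaving out each mouse.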

Additional observations from a re-analysis of the deposited data

Results flagged for a closer look

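In 5 of 82 groups of 6 mice, taken over the 33 genes and 8 ratios in each genotype, 1 mouse lay far from the others by the gap to its neighbour against the whole range. Chance gives about 1 in 20. In WT, Ugp2 was highest in mouse 4 at 424 CPM, Gbe1 in mouse 2 at 70.3 CPM and Pygb in mouse 2 at 927 CPM, while Pygm was lowest in mouse 5 at 1053 CPM. In Vps13c-cKO, Gapdh was lowest in mouse 6 at 259 CPM.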

How the results depend on the processing

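Of the 15 called genes, 12 kept their direction and call under every alternative run that tested them. The exceptions were Pfkm, Pgam2 and Gys1, whose values stand in the report. Of the 18 others, 11 stayed on their side of the threshold with the same sign. Counts over these genes ranged from 6 to 8 higher and 7 to 9 lower under the alternatives that kept all mice. The 7 lower came from the run without chromosome 7 genes, which drops the called genes Aldoa and Gys1. On leaving out each mouse, 5 to 9 were higher and 7 to 9 lower. Gpi1 and Gyg passed with DESeq2, limma-voom and the filter at 5 CPM. The sign of 3 genes near 0 changed. Without single mice Pkm lay between -0.0036 and 0.020, Ppp1r3a between -0.018 and 0.040 and Ppp1r3c between -0.074 and 0.144 (log2), and Ppp1r3c was at -0.0044 without a filter and -0.0021 with DESeq2; the cause was not tested.

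The replicate numbers are shared between the groups, but mice of the same number did not deviate together (correlations from -0.040 to 0.062, and 1 of 6 matched best with its own number). With the replicate block, 6 of the 33 genes were higher and 8 lower, Gys1 being the call lost. For the ratios the paired sign-flip test cannot give an adjusted p under 0.0625 for the 4 smallest, so that no ratio passed. The differences were unchanged by construction, at 0.49 for Hk1 to Hk2, 0.38 for Pfkp to Pfkm, 0.19 for Pfkl to Pfkm, 0.39 for Eno1 to Eno3 and -0.087 for Pygb to Pygm. Other alternatives left every ratio on its side of the threshold. The changed genes of the simulation were drawn at random from all tested genes, so its recovery need not be that of these 33. Genes that did not pass are not shown to be unchanged.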
